A study of Homo sapiens with 4 samples.

Results

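The genes described here are 9 clustered genes for the core histones H2A and H2B: HIST1H2AB, HIST1H2AC and HIST1H2AD for H2A, and HIST1H2BE, HIST1H2BG, HIST1H2BH, HIST1H2BJ, HIST1H2BK and H2BFS for H2B. Each was followed through 1 named probe, so that 9 of the 47289 gene probes on the array were chosen. Their RNA was measured in NCCIT, an established human embryonal carcinoma line, that is, a tumour line which resembles embryonic stem cells. The cells were seeded at 70000 per square centimetre and received transfection reagent alone (mock) or the reagent with esiRNA, a pool of short RNAs cut from a longer double strand by an endonuclease, against OCT4, NANOG or SOX2. These transcription factors maintain the undifferentiated state. RNA was collected at day 2.5, and each of the 4 groups was represented by 3 arrays, which the labels call biological replicates. No group received an esiRNA without a target, so that an effect of esiRNA as such cannot be told apart from that of the target in a comparison with mock.

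Of the 8 genes that were detected on every array, 8 fell when OCT4 was silenced and 8 when SOX2 was silenced, to between 35.0% and 58.5% of the mock level, where 29.8% and 29.2% of all tested probes were called lower. The ninth, HIST1H2AB, was not detected in either knock-down. When NANOG was silenced, 3 of the 9 fell, and by less, where 15.2% of all probes were called lower. The 9 names coincide with the H2A and H2B genes of the HIST1 cluster, together with H2BFS, that the study itself listed as lower in the OCT4 knock-down on these arrays. Their direction against mock in that knock-down is therefore not independent evidence. The NANOG and SOX2 knock-downs are compared with the same mock arrays. SOX2 against NANOG uses none of the arrays of OCT4 against mock. The study had, however, also reported histone genes as lower with OCT4 and SOX2 but not with NANOG silenced. The comparison of SOX2 with NANOG is therefore not independent of the study's results either.

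H2A and H2B pair as dimers, and histone dimers and tetramers together form the core of the nucleosome around which DNA is wrapped. Their clustered genes exist in many copies and are transcribed mainly in S phase, when newly made DNA must be packaged. Most of their messenger RNAs carry no poly(A) tail and end in a conserved stem-loop bound by the protein SLBP, although some clustered genes also give polyadenylated transcripts. Linear amplification of the kind used here is primed with oligo(dT), so that RNA without a poly(A) tail is captured less well. The level of a probe is thus that of the RNA which was amplified, and the share of a gene's transcripts that it covers was not measured. The genes encode proteins that are almost the same, and the probe sequences were not used here. Signal from a near-identical copy cannot be separated from that of the named gene.

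Of the genes, 8 lie on chromosome 6, and the current names in RefSeq are H2AC4, H2AC6 and H2AC7 for HIST1H2AB, HIST1H2AC and HIST1H2AD and H2BC6, H2BC8, H2BC9, H2BC11 and H2BC12 for HIST1H2BE, HIST1H2BG, HIST1H2BH, HIST1H2BJ and HIST1H2BK. On GRCh38.p14 these 8 genes span chr6:26033092-27146858, which is 1113767 bases. H2BFS, now H2BC12L, lies apart at chr21:43565182-43565648. Gene models were 462 to 527 bases long except that of HIST1H2BK, which extends over 8566 bases and has 2 start sites in the promoter table. The first of these was used. Histone genes often stand in pairs that are read away from each other, and within 1000 bases a divergent partner was found for HIST1H2AC (H2BC4, with 246 bases between the start sites), HIST1H2AD (H2BC7, 223 bases), HIST1H2BG (H2AC8, 233 bases), HIST1H2BJ (H2AC11, 248 bases) and HIST1H2BH (H3C7, 979 bases).

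The promoters are shown because OCT4 belongs to the POU family, whose members bind the octamer ATTTGCAT, an element long known from H2B genes. RefSeq promoter sequence was found for 8 of the 9 genes. The 150 bases before the start of transcription are given for 3 H2A and 5 H2B genes, written 5′ to 3′ on the strand of the gene, with the octamer or its reverse complement ATGCAAAT in capitals.
HIST1H2AB, chr6:26033619-26033768, minus strand: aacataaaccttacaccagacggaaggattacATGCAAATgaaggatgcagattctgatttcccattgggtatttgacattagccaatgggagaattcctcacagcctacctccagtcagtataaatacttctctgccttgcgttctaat
HIST1H2AC, chr6:26124022-26124171, plus strand: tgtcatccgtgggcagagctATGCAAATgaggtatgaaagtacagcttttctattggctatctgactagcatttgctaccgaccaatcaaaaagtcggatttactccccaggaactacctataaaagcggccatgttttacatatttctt
HIST1H2AD, chr6:26199294-26199443, minus strand: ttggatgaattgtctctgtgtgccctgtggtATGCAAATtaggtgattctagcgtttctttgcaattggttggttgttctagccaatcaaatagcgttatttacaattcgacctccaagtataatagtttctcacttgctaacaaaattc
HIST1H2BE, chr6:26183611-26183760, plus strand: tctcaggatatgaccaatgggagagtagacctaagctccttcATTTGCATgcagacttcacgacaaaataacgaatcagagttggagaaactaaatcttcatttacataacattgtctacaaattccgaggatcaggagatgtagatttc
HIST1H2BG, chr6:26216689-26216838, minus strand: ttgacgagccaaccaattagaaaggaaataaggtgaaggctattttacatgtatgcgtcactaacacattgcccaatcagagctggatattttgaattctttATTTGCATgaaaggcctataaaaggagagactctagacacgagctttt
HIST1H2BH, chr6:26251464-26251613, plus strand: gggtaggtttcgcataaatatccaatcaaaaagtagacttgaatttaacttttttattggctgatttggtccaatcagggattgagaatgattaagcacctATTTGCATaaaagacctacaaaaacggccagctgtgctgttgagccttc
HIST1H2BJ, chr6:27132796-27132945, minus strand: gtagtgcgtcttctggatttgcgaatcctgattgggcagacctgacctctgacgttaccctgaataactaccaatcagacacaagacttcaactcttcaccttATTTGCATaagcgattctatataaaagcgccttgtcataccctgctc
HIST1H2BK, chr6:27146859-27147008, minus strand: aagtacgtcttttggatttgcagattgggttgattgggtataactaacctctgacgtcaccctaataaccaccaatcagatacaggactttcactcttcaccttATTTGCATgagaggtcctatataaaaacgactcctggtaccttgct

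Within 250 bases before the start, the octamer was found on either strand in all 8 promoters, against 454 of the 27305 promoters in the table (1.66%). In the H2B genes it was read on the strand of the gene and began 46 to 49 bases before the start, save in HIST1H2BE, where it began at 108 bases. In the H2A genes it stood on the opposite strand and began 118 to 130 bases before the start. Among the other clustered histone promoters it was present in 8 of 13 for H2A, 9 of 14 for H2B, 1 of 11 for H3, 0 of 13 for H4 and 0 of 6 for H1. The motif CCAAT, the core of the site of the factor NF-Y, was found on either strand in 8 of 8 promoters (33% of all promoters). TATAAA was found in 6 of 8 (11.1%), in HIST1H2BE only at 189 bases before the start. Of the other clustered promoters, CCAAT was in 13 of 13 for H2A, 13 of 14 for H2B and 11 of 11 for H3. It was in 3 of 13 for H4 and 6 of 6 for H1. TATAAA was there in 10 of 13 for H2A, 8 of 14 for H2B and 8 of 11 for H3. For H4 and H1 it was in 7 of 13 and 3 of 6. No match of one motif overlapped with a match of another in the 8 promoters shown (0 of 45 matches). Lined up on the octamer without gaps, the promoters of HIST1H2BJ and HIST1H2BK were identical at 57% of 149 bases, while the other pairs within H2A or within H2B ranged from 26.5% to 38.3%. A match describes the letters only, and binding of OCT4 or of another member of its family was not measured. With OCT4 silenced, the H4 genes HIST2H4 and HIST1H4H changed by -1.61 and -1.52 on the log2 scale. They were named from the study's list of genes lower in that knock-down, and their promoters are not given singly here. The part of the octamer in these changes was not tested.

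**Figure D1:**
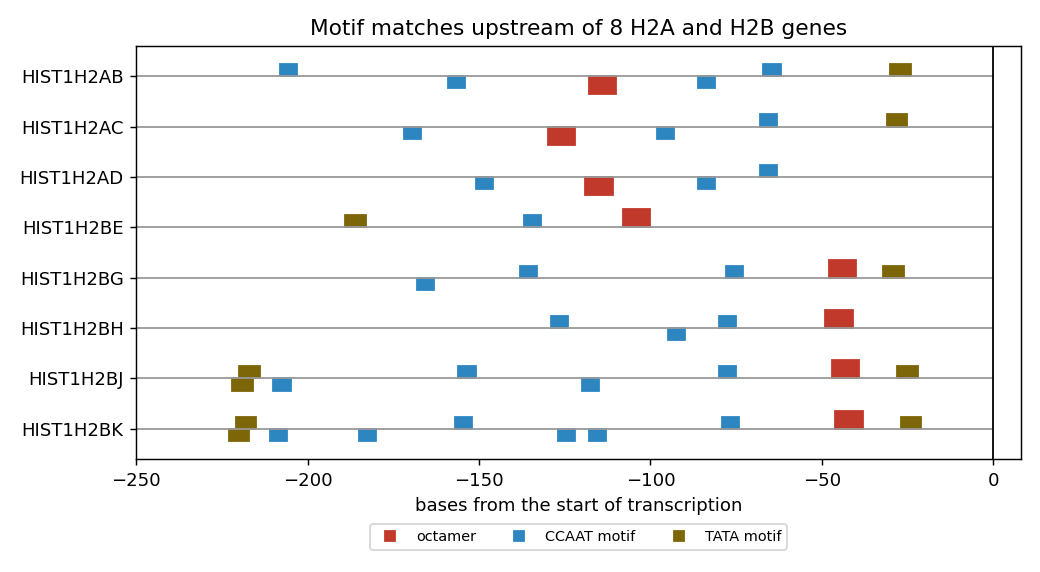
Matches to the octamer, CCAAT and TATAAA in the 250 bases before the start of transcription (0 on the horizontal axis, in bases) of 8 H2A and H2B genes. Boxes above a line lie on the strand of the gene and boxes below it on the opposite strand, and the octamer lies above the line in the 5 H2B genes and below it in the 3 H2A genes.

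Between 23.7% and 27.2% of the gene probes were detected per array, that is, had a detection value of at least 0.99, and 12374 probes were tested. Correlations of log2 levels ranged from 0.992 to 0.997 between arrays of a group and from 0.931 to 0.995 between groups. The silenced genes were checked first. POU5F1, which encodes OCT4, read 669, 557 and 611 on the mock arrays, 39.8, 34.3 and 26.6 after OCT4 silencing, 446, 438 and 488 after NANOG silencing, and 32.1, 28.1 and 31.3 after SOX2 silencing. NANOG read 343, 363 and 320.4 in mock, 101, 89.8 and 94.9 in its own knock-down, 28.4, 28.9 and 31.8 in the OCT4 knock-down and 31.7, 28.6 and 23.8 in the SOX2 knock-down. POU5F1 was undetected on all SOX2 and 2 of the 3 OCT4 knock-down arrays, and NANOG on all OCT4 and SOX2 knock-down arrays. Both targets were low where the labels say so, but these genes did not separate the OCT4 from the SOX2 arrays. The probe of SOX2 itself could not be named, so that its knock-down was not checked here.

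Levels are given below as normalised intensities in arbitrary units, on a linear scale after background correction with an offset of 16. They are compared between groups for each probe, or as a sum over the probes of a list, and never between probes. A sum mostly follows the brightest probes of its list. The array replicates are listed in the order of their numbers, and differences are log2 fold changes with their 95% interval from the limma fit over all 12 arrays, with p-values adjusted by the Benjamini-Hochberg method over the 12374 probes. In bulk RNA, fewer cells that express a gene and less RNA per cell cannot be told apart.

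Of the H2A genes, HIST1H2AC was detected on every array. It read 1658, 1557 and 1714 in mock, 641, 843 and 828 after OCT4 silencing, 1147, 1198 and 1531 after NANOG silencing, and 651, 593 and 708 after SOX2 silencing. Levels in the OCT4 and SOX2 knock-downs lay below all other arrays and overlapped with each other. Against mock it fell by 53.4% for OCT4 (log2 -1.10, interval -1.38 to -0.82, adjusted p = 1.446e-05 by limma) and fell by 60.5% for SOX2 (log2 -1.34, interval -1.62 to -1.06, adjusted p = 2.511e-06 by limma). In the NANOG knock-down the 3 arrays also lay below mock, but the change of -0.36 (interval -0.64 to -0.08) missed the threshold of 0.05 after adjustment, with an adjusted p of 0.0531 by limma. It passed under 8 of 17 alternative treatments of the data, with adjusted p between 0.0133 and 0.170 over all of them.

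HIST1H2AD, also detected on every array, showed the same order of groups for mock, NANOG and the remaining knock-downs. Its levels were 213, 163 and 185 in mock, 65.7, 75.1 and 79.7 after OCT4 silencing, 161, 153 and 159 after NANOG silencing, and 57.8, 63.1 and 77.4 after SOX2 silencing. OCT4 and SOX2 arrays overlapped and stood well apart from the rest. The change against mock was -1.34 (interval -1.61 to -1.08) for OCT4 and -1.50 (interval -1.77 to -1.24) for SOX2, with adjusted p of 1.542e-06 and 5.308e-07 by limma. Without background correction these changes were -0.71 and -0.77, still past the threshold. NANOG silencing gave -0.24 (interval -0.50 to 0.03, adjusted p = 0.159 by limma), although its highest array lay just under the lowest mock array.

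HIST1H2AB lay near the detection limit. It read 63.9, 58.3 and 44.8 in mock and 44.1, 49.4 and 54.3 after NANOG silencing, where it was detected on all 6 arrays. On the 6 arrays of the other knock-downs it was not detected, with readings of 27.9, 23.0 and 28.5 for OCT4 and 30.2, 30.9 and 34.7 for SOX2. Only a bound on its change can be given there. Mock was at least 1.51-fold higher than the OCT4 knock-down and at least 1.37-fold higher than the SOX2 knock-down, with adjusted p of 2.774e-05 and 0.0003175 from the limma fit to the readings. These bounds come from group means under the main treatment and hold no sampling error. Over all treatments of the data the fitted log2 change ran from -1.55 to -0.34 for OCT4 and from -0.94 to -0.24 for SOX2. The smallest of these changes lay below the bounds. Mock and NANOG arrays overlapped, and their difference of -0.17 (interval -0.46 to 0.13) did not pass the test, with an adjusted p of 0.375 by limma.

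**Figure D2:**
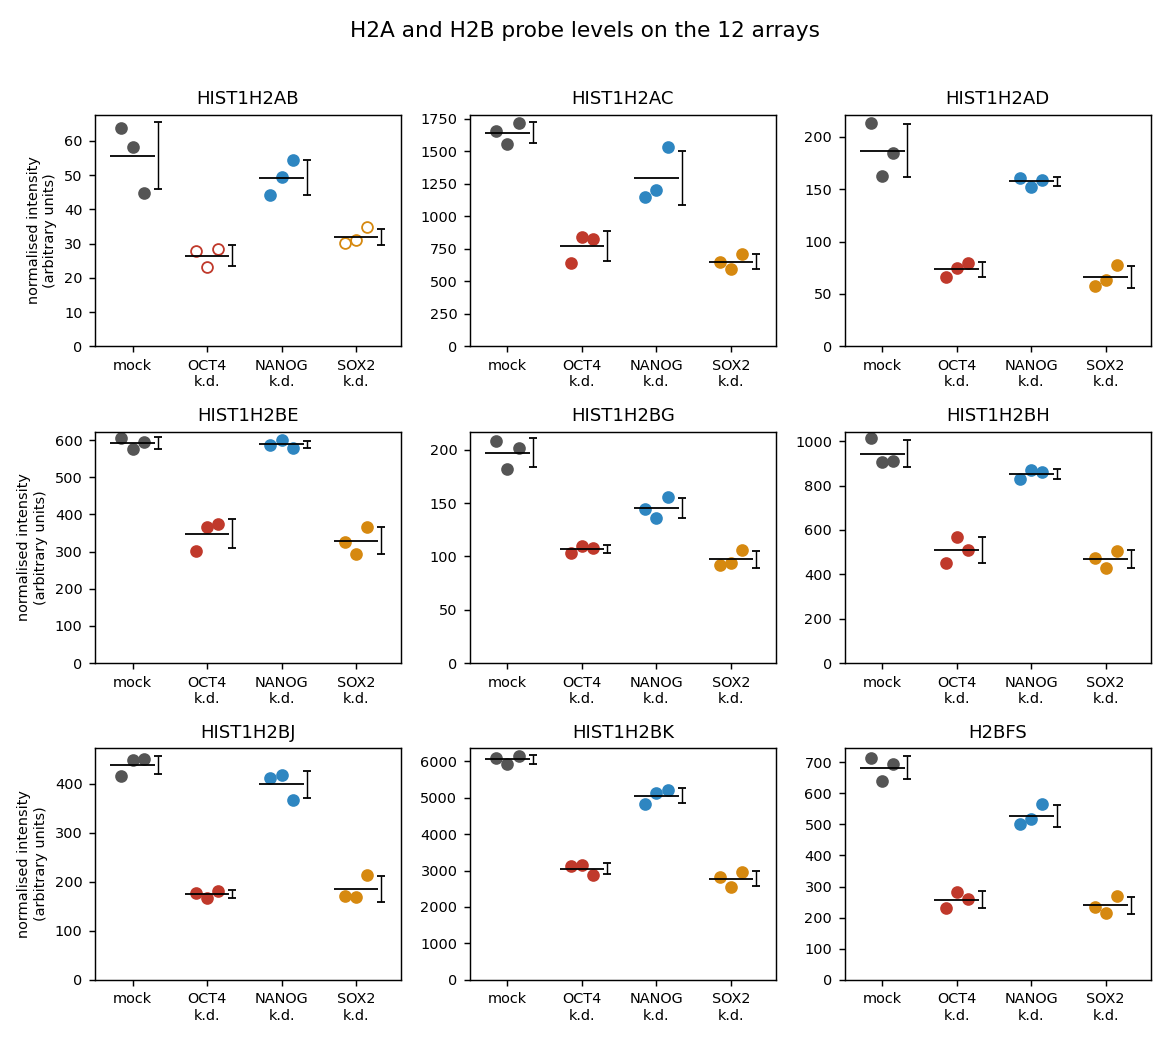
Normalised intensity (arbitrary units, linear axes from 0) of the 9 H2A and H2B probes on the 12 arrays, with filled points for detected and open points for undetected readings, a line at each group mean and a bar of 1 SD to each side of it (n = 3). In each panel the OCT4 and SOX2 knock-down arrays lie below all mock and NANOG knock-down arrays.

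The H2B genes were all detected on every array. HIST1H2BK read 6082, 5916 and 6154 in mock, 3123, 3158 and 2880.3 after OCT4 silencing, 4837, 5119 and 5218 after NANOG silencing, and 2811, 2556 and 2969 after SOX2 silencing. The replicates were tight, with an SD of 122 around a mock mean of 6051, and mock, NANOG and the remaining groups formed separate steps. Its level fell by 49.6% with OCT4 (log2 -0.99, interval -1.15 to -0.83, adjusted p = 2.321e-07 by limma) and fell by 54.2% with SOX2 (log2 -1.13, interval -1.28 to -0.97, adjusted p = 6.744e-08 by limma). With NANOG it fell by 16.4% (log2 -0.26, interval -0.42 to -0.10, adjusted p = 0.0189 by limma). This call was lost without a detection filter (adjusted p = 0.0515), without NANOG knock-down replicate 1 (0.0665), without mock replicate 3 (0.0585) and by the methods' t-test with its requirement of a 1.5-fold change.

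H2BFS, the copy on chromosome 21, gave 713, 641 and 693 in mock, 231, 283 and 259.6 after OCT4 silencing, 500.0, 516 and 565 after NANOG silencing, and 234, 215 and 270.2 after SOX2 silencing. It had the largest fall of the 8 genes detected throughout in the OCT4 and in the SOX2 knock-down. It fell by 62.3% with OCT4 (log2 -1.41, interval -1.63 to -1.19) and fell by 65.0% with SOX2 (log2 -1.51, interval -1.73 to -1.29). These intervals overlapped with those of HIST1H2AC, HIST1H2AD and HIST1H2BJ. The adjusted p was 1.75e-07 for OCT4 and 8.626e-08 for SOX2 by limma. With NANOG silenced it fell by 22.8% (log2 -0.37, interval -0.59 to -0.15, adjusted p = 0.0152 by limma). Without NANOG knock-down replicate 1 this adjusted p was 0.0528, and the change stayed under the 1.5-fold requirement of the methods' t-test. Its current name marks the gene as like H2BC12, that is, HIST1H2BK, and the part of its signal that comes from that gene was not tested.

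HIST1H2BG changed in all 3 knock-downs. It read 209, 182 and 202 in mock, 144, 136 and 156 in the NANOG knock-down, 103, 110.3 and 108 in the OCT4 knock-down and 91.5, 94.1 and 106 in the SOX2 knock-down. NANOG arrays thus took a middle position, overlapping neither mock nor the other knock-downs. The change with NANOG was -0.44 (interval -0.62 to -0.26, adjusted p = 0.0019 by limma), a call which was kept under 16 of 17 alternatives and lost by the methods' t-test with its requirement of a 1.5-fold change, and those with OCT4 and SOX2 were -0.88 and -1.02 (adjusted p = 2.111e-06 and 5.129e-07 by limma).

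HIST1H2BE changed in the OCT4 and SOX2 knock-downs alone. Its mock readings of 606, 575 and 594 and its NANOG knock-down readings of 588, 599 and 579 covered the same range, whereas OCT4 silencing gave 303, 366 and 374 and SOX2 silencing 327, 295 and 367. The NANOG difference was -0.01 (interval -0.22 to 0.20, adjusted p = 0.965 by limma). This interval does not reach the changes in the other knock-downs, which were -0.77 (interval -0.98 to -0.57) and -0.85 (interval -1.06 to -0.64), with adjusted p of 2.327e-05 and 1.017e-05 by limma.

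HIST1H2BH and HIST1H2BJ also changed with OCT4 and with SOX2 silenced. HIST1H2BH read 1014, 907 and 911 in mock, 451, 569.7 and 510.1 with OCT4, 828, 871 and 861 with NANOG, and 474, 427 and 505 with SOX2 silenced. HIST1H2BJ read 417, 448 and 451 in mock, 176, 168 and 182 with OCT4, 411, 419 and 367 with NANOG, and 171, 169 and 215 with SOX2 silenced. For each, the OCT4 and SOX2 arrays overlapped and lay apart from mock. The changes were -0.89 and -1.01 for HIST1H2BH and -1.32 and -1.25 for HIST1H2BJ, with adjusted p between 1.895e-07 and 6.198e-06 by limma. NANOG silencing gave -0.14 for both genes, with adjusted p of 0.274 and 0.298 by limma.

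Across the 9 genes, all were called lower with OCT4 silenced, and nothing is read from this count, since the study drew its list from the same comparison. The median change was -1.06, or -0.99 with HIST1H2AB at its bound, against a median of -0.03 over all probes. With SOX2 silenced 9 of 9 were called lower (29.2% of all probes), with a median of -1.13 against -0.04. This comparison uses the same mock arrays, and the study had reported histone genes as lower there. Its count is therefore not independent evidence either. Both counts include HIST1H2AB, which passed the detection filter only through the groups where it was high. The NANOG knock-down gave 3 of 9 (15.2% of all probes), namely HIST1H2BG, HIST1H2BK and H2BFS, and a median of -0.24 against 0.01. In that comparison 6 of the 9 genes had all knock-down arrays below all mock arrays, as did 22.0% of tested probes. The genes that did so without passing the test were HIST1H2AC, HIST1H2AD and HIST1H2BH. All OCT4 knock-down arrays lay below all mock arrays for 9 of 9 genes (33.8% of probes) and below all NANOG knock-down arrays for 9 of 9 (33.1%). The SOX2 knock-down arrays did so for 9 of 9 against mock (32.1%) and for 9 of 9 against NANOG (31.7%). No member was called higher in any comparison.

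**Figure D3:**
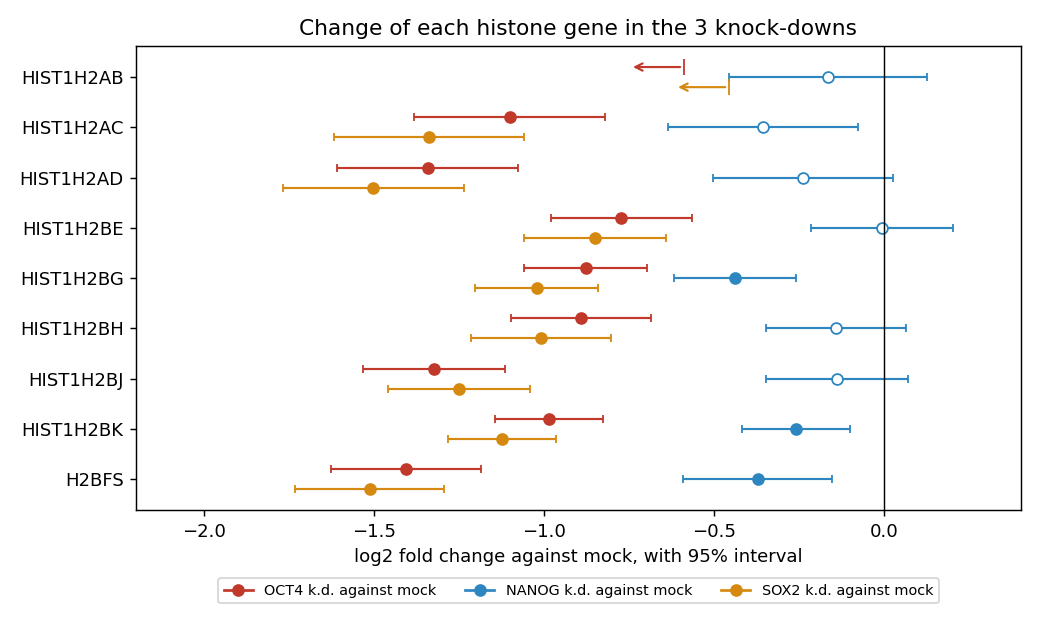
Log2 fold change against mock, with its 95% interval from the limma fit, of the 9 genes in each of the 3 knock-downs (k.d., n = 3 arrays per group). Filled points passed an adjusted p of 0.05, and 8, 3 and 8 of the points are filled for OCT4, NANOG and SOX2. Arrows mark the bound on the fall of HIST1H2AB, without sampling error, with OCT4 and SOX2 silenced, where it was not detected.

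The knock-downs were then compared with each other. SOX2 against NANOG shares no array with OCT4 against mock. The study had nevertheless reported histone genes as lower with SOX2 and not with NANOG silenced, so that this count is not independent evidence. Of the 8 genes detected throughout, 8 were lower in the SOX2 than in the NANOG knock-down (27.8% of all probes). They differed by -0.58 for HIST1H2BG to -1.26 for HIST1H2AD, with adjusted p from 8.944e-07 to 8.708e-05 by limma. HIST1H2AB, undetected with SOX2 silenced, was at least 1.22-fold higher with NANOG silenced (adjusted p = 0.002003 from the limma fit to the readings). OCT4 against NANOG likewise gave 8 of 8 lower (28.0% of all probes). There the genes ranged from -0.44 for HIST1H2BG to -1.19 for HIST1H2BJ. HIST1H2AB was at least 1.34-fold higher with NANOG silenced (adjusted p = 0.0001345 from the limma fit to the readings). The p-values of HIST1H2AB do not test these bounds. With subtracted background and a floor of 20, HIST1H2AB lost both calls (adjusted p = 0.0993 and 0.0983), as its readings in the OCT4 and SOX2 groups then lay at the floor. Over all treatments its fitted log2 change against NANOG ran from -1.27 to -0.28 for OCT4 and from -0.70 to -0.18 for SOX2. Here too the smallest changes lay below the bounds, which hold no sampling error.

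OCT4 against SOX2 gave no call for any of the 9 genes, nor for any of the 12374 probes by limma (0.00%). At an unadjusted p under 0.05 there were 1210 probes, among them 0 of the 9 genes, and other treatments of the data called 0 to 95 probes. Differences ranged from -0.27 for HIST1H2AB, undetected on both sides, to 0.24 for HIST1H2AC. The intervals of HIST1H2BK (-0.02 to 0.30) and HIST1H2BG (-0.04 to 0.32) were the narrowest, and that of HIST1H2AC reached from -0.04 to 0.52. HIST1H2AB was called lower in the OCT4 group under median scaling (adjusted p = 0.0492), which is a comparison of undetected readings. By group means the order of the levels was thus mock, then NANOG, then the OCT4 and SOX2 groups for each gene. The latter neighbours did not pass the test of a difference for any of the 9 genes, nor did mock and NANOG for 6 of the 9.

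The authors' own group means, which were background-subtracted and scaled by another method, gave ratios to mock of 0.372 to 0.585 for OCT4 and 0.347 to 0.579 for SOX2 over the 8 genes with a value. For NANOG the ratios ran from 0.725 for HIST1H2BG to 0.982 for HIST1H2BE. HIST1H2AB has an authors' mean in mock and in the NANOG knock-down (ratio 0.822) and none in the others. These are pooled values without an error.

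Within groups, some of the 9 genes also varied together. After removal of group means, the correlation over the 12 arrays was above 0 for 35 of the 36 pairs of genes, with a median of 0.47 and a range from -0.04 to 0.88. The pairs of HIST1H2AB reached only 0.04 to 0.28, and those of HIST1H2BJ ran from -0.04 to 0.50. All points share their array and its scaling, and this is a description without a test. Pairs of other probes were not examined as a reference. Over the group means as well, the profile of HIST1H2AC was most like that of H2BFS among all probes (Pearson's r = 0.985 over 12 arrays). Of the 3 probes most like each gene, other histone genes appeared for H2BFS and HIST1H2AD (HIST2H4, r = 0.997 and 0.991), HIST1H2BH (HIST1H4J, r = 0.991) and HIST1H2BE (HIST3H2A, r = 0.989). HIST1H2BK was most like CBS, LOC388494 and UTF1 (r = 0.996, 0.995 and 0.994). Among the 100 probes most like each gene, 0 to 5 of the other 8 genes were found, with 0 for HIST1H2AB and HIST1H2BJ. Many probes follow the same order of groups, and names were at hand for genes in the study's lists of changed genes only.

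Of the other clustered histone genes 10 could be named, all from the study's list of genes lower with OCT4 silenced, so that their count there is again no independent evidence. Of the 10, 7 were detected on every array, and 7 of these 7 were lower in the OCT4 knock-down (median -1.49, 29.8% of all probes), 7 in the SOX2 knock-down (median -1.54, 29.2%) and 4 in the NANOG knock-down (median -0.33, 15.2%). In the comparison of SOX2 with NANOG, 7 of 7 were lower (median -1.24, 27.8%), which is not independent evidence either. HIST1H3J was undetected on all arrays of both the OCT4 and the SOX2 knock-down, and HIST1H3F and HIST2H3C on all arrays of the SOX2 knock-down. All 10 passed for OCT4 and for SOX2 against mock, but these 3 genes passed the detection filter only through the groups where they were high. In order of their change with OCT4 silenced, the genes with the largest values were HIST3H2A, a further H2A gene, at -1.82, HIST2H3C (H3) at -1.79, HIST2H4 (H4) at -1.61 and HIST1H4H (H4) at -1.52. HIST2H3C was detected on 2 of the 3 OCT4 knock-down arrays, so that its value there rests in part on an undetected reading. With SOX2 silenced the changes were -1.97 for HIST3H2A, -1.73 for HIST2H4 and -1.54 for HIST1H4H, and mock was at least 3.30-fold higher for HIST2H3C (adjusted p = 4.127e-08 by limma). Over all 10 genes 7 passed for NANOG. HIST3H2A did not follow in the NANOG knock-down, where it read 655, 691 and 641 against 738, 596 and 652 in mock (log2 0.00, adjusted p = 0.985 by limma). The other genes without a call for NANOG were HIST2H2AC (0.03, adjusted p = 0.872) and HIST1H3D (-0.23, adjusted p = 0.118), which are named here after their values were seen. Of the 7 H3 and H4 genes 6 were lower with NANOG silenced (15.2% of all probes). Their log2 changes ran from -0.33 for HIST1H4J to -0.64 for HIST2H3C, with adjusted p between 0.0006076 and 0.03117 by limma. HIST2H2BE, an H2B gene, was lower as well (-0.41, adjusted p = 0.0004604 by limma). This grouping by kind of histone was made after the values were seen.

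**Figure D4:**
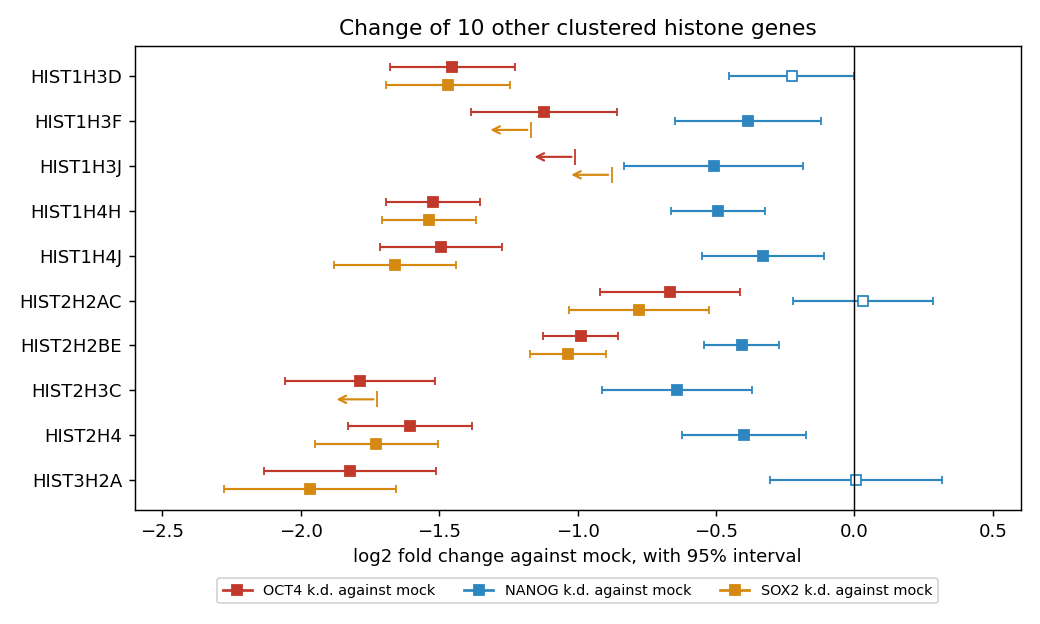
Log2 fold change against mock, with its 95% interval from the limma fit, of 10 other clustered histone genes in each of the 3 knock-downs (k.d., n = 3 arrays per group). Filled squares passed an adjusted p of 0.05. Arrows mark the bound on the fall, without sampling error, of HIST1H3J, HIST1H3F and HIST2H3C where a knock-down left them undetected on all 3 arrays. The 7 genes detected on every array lie between -1.97 and -0.67 for OCT4 and SOX2.

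Factors that act on histone RNA or protein were taken from lists of known genes, of which few could be named. Of 17 genes for transcription and 3′ end processing of histone RNA, 2 had a named probe. SLBP, the stem-loop binding protein, read 267, 261 and 286 in mock, 461, 519 and 478 with OCT4, 274, 250.5 and 305 with NANOG and 472, 482 and 449 with SOX2 silenced. It rose by 0.84 with OCT4 and by 0.79 with SOX2, where 26.7% and 25.9% of all probes were called higher (adjusted p = 3.494e-06 and 6.228e-06 by limma), while the NANOG difference was 0.02 (adjusted p = 0.868). NFYB, a subunit of NF-Y, changed by -0.73 and -0.75 on the log2 scale with OCT4 and SOX2 silenced (adjusted p = 5.513e-05 and 4.132e-05 by limma). NPAT and CASP8AP2, which serve histone transcription, had no named probe. Of 16 histone chaperones, NASP alone could be named. It fell by 1.45 with OCT4 and fell by 1.48 with SOX2 on the log2 scale (adjusted p = 3.176e-08 and 2.614e-08 by limma), and its NANOG difference was -0.20 (adjusted p = 0.106).

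Named genes of the cell cycle changed in the same knock-downs as the histone genes. Of 36 genes of S phase and replication 6 were named. Of these, 5 were lower and 1 higher with either OCT4 or SOX2 silenced, while 2 were lower with NANOG silenced. Of all probes, 29.8%, 29.2% and 15.2% were called lower for OCT4, SOX2 and NANOG, and 26.7%, 25.9% and 15.3% higher. The summed level of the 6 named genes was 8832 to 9303 in mock and 8735 to 8979 with NANOG silenced. It was 6089 to 6541 with OCT4 and 5966 to 6258 with SOX2 silenced. MCM7 alone read 5335 to 5784 in mock, so that the sum mostly follows this gene. The named genes with the largest change were E2F2, an E2F transcription factor, at -0.80 with OCT4 and -0.88 with SOX2, ORC1L, a subunit of the origin recognition complex, at -0.78 and -0.82, UHRF1, which maintains DNA methylation, at 0.77 and 0.74, and CCNA2, cyclin A2, at -0.75 and -0.83. Of 27 genes of G2 and mitosis 4 were named. All 4 were lower with OCT4 and with SOX2 and 1 with NANOG silenced (29.8%, 29.2% and 15.2% of all probes). The CDK inhibitors went the other way, with 4 of 7 named, 4 higher for OCT4 and for SOX2 and 2 for NANOG, where 15.3% of all probes were called higher. CDKN2B, which blocks CDK4 and CDK6, was not detected on any mock or NANOG knock-down array and was at least 10.4-fold higher with OCT4 and at least 11.04-fold higher with SOX2 silenced than in mock (adjusted p = 9.131e-12 and 7.428e-12 by limma). The broad CDK inhibitors CDKN1A and CDKN1C were higher in all knock-downs. CDKN1A changed by 1.65, 0.95 and 1.68 and CDKN1C by 1.60, 1.72 and 1.67 on the log2 scale for OCT4, NANOG and SOX2. The names were available because the study had called these genes, so the counts do not describe the full lists, and the part of the cell cycle in the histone result was not tested.

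Markers of cell identity moved with the same groups. Of 12 markers of undifferentiated cells 10 were named, on 12 probes, of which 12 were lower with OCT4, 12 with SOX2 and 10 with NANOG silenced. Among them are POU5F1 and NANOG, themselves esiRNA targets, whose calls in their own knock-downs follow from the treatment. POU5F1 with SOX2 silenced, and NANOG with OCT4 or SOX2 silenced, passed the detection filter only through the groups where they were high. The summed level of the markers was 26069 to 27507 in mock and 18458 to 19515 with NANOG silenced. It was 6338 to 7238 with OCT4 and 6172 to 6692 with SOX2 silenced. A single DNMT3B probe read 7627 to 8446 and TDGF1 6656 to 6995 in mock, so that a large part of the sum comes from these probes. Of 8 markers of mesoderm and smooth muscle 7 were named, of which 7 were higher with OCT4, 7 with SOX2 and 2 with NANOG silenced, and TAGLN and HAND1 were the only ones detected on every array. Their summed level was 768 to 816 in mock, 2167 to 2640.0 with NANOG, 8932 to 9651 with OCT4 and 8382 to 9163 with SOX2 silenced. The genes called with NANOG silenced were HAND1 (log2 1.87) and TAGLN (0.88), and HAND1 alone read 536 to 608 in mock and 1878 to 2367 with NANOG silenced. Of 5 neuroectoderm markers NES, which encodes nestin, was named, at 208 to 242 in mock, 417 to 522 with NANOG, 958 to 989 with OCT4 and 1010 to 1262 with SOX2 silenced. No marker of trophoblast (0 of 7) or endoderm (0 of 6) had a named probe. Of all tested probes, 29.8%, 15.2% and 29.2% were called lower and 26.7%, 15.3% and 25.9% higher for OCT4, NANOG and SOX2 against mock. The markers could be named because the study had called them changed on these arrays. Their counts are thus no independent evidence and do not describe the full lists. The part of these changes in the histone result was not tested.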

How the data were processed

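Levels were measured on 12 Illumina BeadChip arrays of NCCIT cells, 3 per group, from 300 ng of total RNA after linear amplification. The deposited intensity values are the authors' BeadStudio 1.0 mean signals per probe, neither background-subtracted nor scaled, and the deposited detection value is a fraction, with 1 for certain detection. A further deposited table holds the authors' group means of background-subtracted intensity after rank-invariant scaling.

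Background was corrected with normexp, with the negative-control level taken from the detection values, an offset of 16 was added, and arrays were quantile-normalised and put on the log2 scale (limma 3.58.1, R 4.3.3). After 4 control probes were left out, the 12374 probes detected at 0.99 or more on every array of at least 1 group were fitted over all 12 arrays with lmFit and eBayes. Tests were two-sided, with Benjamini-Hochberg adjustment and a threshold of 0.05. The procedure was tested on simulated data. The precision is limited by the number of arrays. The labels call the arrays biological replicates and name no separate cultures, so that p-values measure the spread between these samples.

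Probe names were taken from the study's lists of changed genes (2985 probes), and all other probes stayed unnamed. The genes and lists were chosen with earlier results of these data known. All 9 genes were named throughout. From each further list at most 4 genes were named for their change, those called with the largest change in the OCT4 knock-down, with SLBP, NPAT and CASP8AP2 where measured. Further histone genes were named for being undetected in a group, for their likeness to a member or after their values were seen. A gene undetected on all arrays of a group is given as a bound, which is taken from group means under the main treatment and holds no sampling error. A p-value printed with a bound is that of the limma fit to the readings and does not test the bound. Promoters came from RefSeq, GRCh38.p14.

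Alternatives were no background correction, background subtraction with a floor of 20, median or rank-invariant scaling, an offset of 50, other detection filters, the compared groups alone, the methods' t-test, the replicate number as a block and leaving out each array. An array chip as a block was not run, because the columns name none. The labels give a harvest at day 2.5.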

Additional observations from a re-analysis of the deposited data

How the results depend on the processing

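With OCT4 or SOX2 silenced, 9 of 9 genes were called lower against mock and against NANOG silenced, or 8 of 8 where HIST1H2AB was not tested because it was not detected on all 12 arrays. The exceptions lay in the comparisons with NANOG, where HIST1H2AB was lost at the floor, and where the methods' t-test with its 1.5-fold requirement called 7 genes for OCT4 (without HIST1H2AC and HIST1H2BG) and 8 for SOX2 (without HIST1H2BG). Against mock with NANOG silenced, the count of 3 genes became 0 by the methods' t-test at 1.5-fold and an unadjusted p under 0.01, and ranged from 1 (without NANOG knock-down replicate 1) to 4 when single arrays were left out. HIST1H2BE changed sign there, to 0.0018 with subtracted background and a floor of 20 and to 0.0017 with rank-invariant scaling, and ranged from -0.027 (without mock replicate 2) to 0.010 (without mock replicate 1) when single arrays were left out. In OCT4 against SOX2 the values without single arrays ranged from -0.00045 to 0.17 for HIST1H2BE and from -0.13 to 0.040 for HIST1H2BJ, and changed sign without SOX2 knock-down replicate 2 and replicate 3 respectively. No such value was called in either form, and the cause was not tested. In that comparison median scaling called 1 of the 9 genes, and of all probes 95 were called without background correction, 8 with subtracted background, 80 with median and 26 with rank-invariant scaling, 71 with an offset of 50, 47 among probes detected on all arrays, 2 with the compared groups alone, 20 and 1 by the methods' t-test before and after Benjamini-Hochberg, and 0 to 7 without single arrays.

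By the methods' t-test at 1.5-fold and the unadjusted threshold, the counts over all probes were 2706 for OCT4, 834 for NANOG and 2565 for SOX2 against mock, and 2328 and 2255 for OCT4 and SOX2 against NANOG, in place of 6998, 3785, 6825, 6426 and 6354. After Benjamini-Hochberg 1764 probes were called for NANOG against mock. Without background correction the sizes were smaller for HIST1H2AD, at -0.71 and -0.77 with OCT4 and SOX2 silenced against mock and -0.56 and -0.62 against NANOG, and for HIST1H2BG, at -0.51 and -0.58 and at -0.24 and -0.31, with no change of call. Other genes had smaller sizes under some treatments as well. For OCT4 against mock the smallest change over all treatments was -0.34 for HIST1H2AB, -0.63 for HIST1H2BE, -0.96 for HIST1H2BJ and -1.12 for H2BFS. With median scaling the median log2 change of all probes was -0.163 for OCT4 and -0.142 for SOX2 against mock. After quantile normalisation it was -0.0305 and -0.0408. The replicate numbers of the arrays did not pair them: of 18 pairs of equal number in different groups 4 deviated together with r over 0.1 (range -0.304 to 0.309). With the replicate number as a block, HIST1H2AC passed for NANOG against mock (adjusted p = 0.0332), and no other call among the 9 genes changed.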
